A study of Mus musculus with 8 samples.

Results

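The proteasome genes of the mouse pineal gland were examined in RNA-seq libraries of 5xFAD mice, which model Alzheimer's disease (AD), and of wild type mice. Members were all genes of the class protein_coding in the deposited table whose names begin with Psm, then a letter from a to g, then a number. This rule found 50 of 21980 protein-coding genes, and used no measured value. The genes of the immunoproteasome, Psmb8, Psmb9 and Psmb10, were kept apart from the rest. By role the other members fell into 8 alpha and 7 standard beta subunits of the 20S core, 6 ATPases of the 19S base, 11 other 19S subunits, 7 assembly chaperones, 5 activators and 1 inhibitor, which together are the 45 standard members. The last members were Psmb11, a beta subunit of the thymus, and Psmc3ip, whose product binds the ATPase Psmc3 but works in meiotic recombination.

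The study set 4 wild type libraries (mice of strain C57BL/6, named WT-11, then WT-21, WT-22 and last WT-23, titled Normal in the labels) against 4 of 5xFAD mice (5xFAD-1, then 5xFAD-2, 5xFAD-3 and last 5xFAD-21), and values per library are listed in that order throughout. For each library the glands of 5 to 7 males were pooled, from mice 5 months old, taken at zeitgeber time 0.5 h, shortly after the lights came on. The 5xFAD mice carry human transgenes with familial AD mutations under the Thy1 promoter, which is active in neurons. The wild type mice came from another supplier, so supplier and genotype cannot be told apart. Total RNA was depleted of ribosomal RNA and sequenced on both ends.

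The 26S proteasome degrades proteins that carry ubiquitin chains. Its 20S core is a barrel of stacked alpha and beta rings, in which Psmb5, Psmb6 and Psmb7 hold the active sites for chymotrypsin-like, caspase-like and trypsin-like cleavage. The 19S cap binds ubiquitin, unfolds the substrate with its ATPase ring and feeds it into the core. Interferon induces Psmb8, Psmb9 and Psmb10, which take the places of Psmb5, Psmb6 and Psmb7 in newly built cores and favour peptides that fit MHC class I. Many cells of the immune system make these subunits without induction.

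The deposited values are FPKM, fragment counts scaled by the length of the transcript and the size of the library, so levels can be compared between genes per length. The lowest values fell on steps, from which 1 fragment on 1000 nt of effective transcript length came to 0.0511 to 0.0836 FPKM, or 11.96 to 19.6 fragments per FPKM. The mice are male by the study's methods, and all libraries held the Y-linked gene Ddx3y at 32.0 to 59.4 FPKM. WT-22 also had 13.3 FPKM of Xist, which is expressed from the inactive X of females, where the other 7 libraries had 0.0048 to 0.0404 FPKM. Pinealocyte markers were present in all libraries. Their 7 genes summed to 1197 to 2756 FPKM in wild type and 1893 to 3110 FPKM in 5xFAD, and none was at 0. Where WT-22 moved a value of the immunoproteasome, the activators, the inhibitor or the interferon genes named here by over 1.5 times, the value without it is given as well. The log2 ratio of Psmb9 to Psmb6 is an exception, given only as a range over libraries left out 1 at a time. Of 4 choroid plexus markers, Ttr was listed at 0 in all 5xFAD libraries and stood at 9440 to 19630 FPKM in wild type. The other 3 (Kl, Folr1 and Kcnj13) had 77.1 to 213 FPKM in 7 libraries and 4.27 to 13.6 FPKM in 5xFAD-1.

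Promoter sequence was looked up because the transcription factor Nfe2l1 is known to raise proteasome genes together, through antioxidant response elements, when proteasome activity is low. Of the 50 members, 42 had an entry in the RefSeq table for GRCm38.p6, with 45 promoters in all. In the 250 bases before the start site, the core of the element (TGACNNNGC on either strand) occurred in 5 of these 45 promoters, or 11.1%, and in 10.4% of 21262 promoters of protein-coding genes. The share in the members was thus close to that of promoters at large. The 5 genes were Psmb5, Psmb6, Psmc6, Psmd9 and Psmd12. The matches in Psmb5 and Psmb6 are shown because these genes encode active sites, and the match in Psmc6 because its values did not overlap between the groups. Capitals mark the core of the element, which is read on the other strand in Psmc6. The stretches, 5′ to 3′ on the strand of each gene in GRCm38, are chr14:54618024-54618072 on the minus strand for Psmb5, chr11:70525318-70525356 on the plus strand for Psmb6 and chr14:45329574-45329615 on the plus strand for Psmc6.
Psmb5: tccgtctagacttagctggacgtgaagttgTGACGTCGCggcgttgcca
Psmb6: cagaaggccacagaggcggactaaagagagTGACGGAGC
Psmc6: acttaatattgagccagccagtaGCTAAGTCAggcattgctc
A CCAAT box stood in 15 of the 45 promoters (33.3%, against 35.4% of all) and the core of the heat shock element (GAANNTTC) in 3 (6.67%, against 6.17%). The core of the interferon-stimulated response element was found in 3 promoters, those of Psmb3, Psmd4 and Psmd9 (6.67%, against 2.96%), and the gamma-activated site core (TTCNNNGAA, either strand) in those of Psmb8 and Psmg1 (4.44%, against 6.58%). These matches describe letters in the window, and no factor binding was measured.

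Proteasome subunits were among the more abundant transcripts of the gland. The 7 standard beta subunits had a median level of 87.8 FPKM over the 8 libraries, and the 7 alpha subunits that passed the filter a median of 70.2 FPKM. The 19S ATPases followed with a median of 54.8 FPKM and the other 19S subunits with 37.5 FPKM. The middle member of the beta subunits stood at the 95.7th percentile of all genes tested, and that of the other 19S subunits at the 87th percentile. Assembly chaperones, which help to build the complex and are not part of it when finished, lay lower, with a median of 14.8 FPKM. Immunoproteasome genes had the lowest median of these classes, 5.43 FPKM, and ran from 3.00 FPKM for Psmb9 to 10.7 FPKM for Psmb10. Some single members of other classes lay lower, such as Psme2b at 2.34 FPKM.

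**Figure D1:**
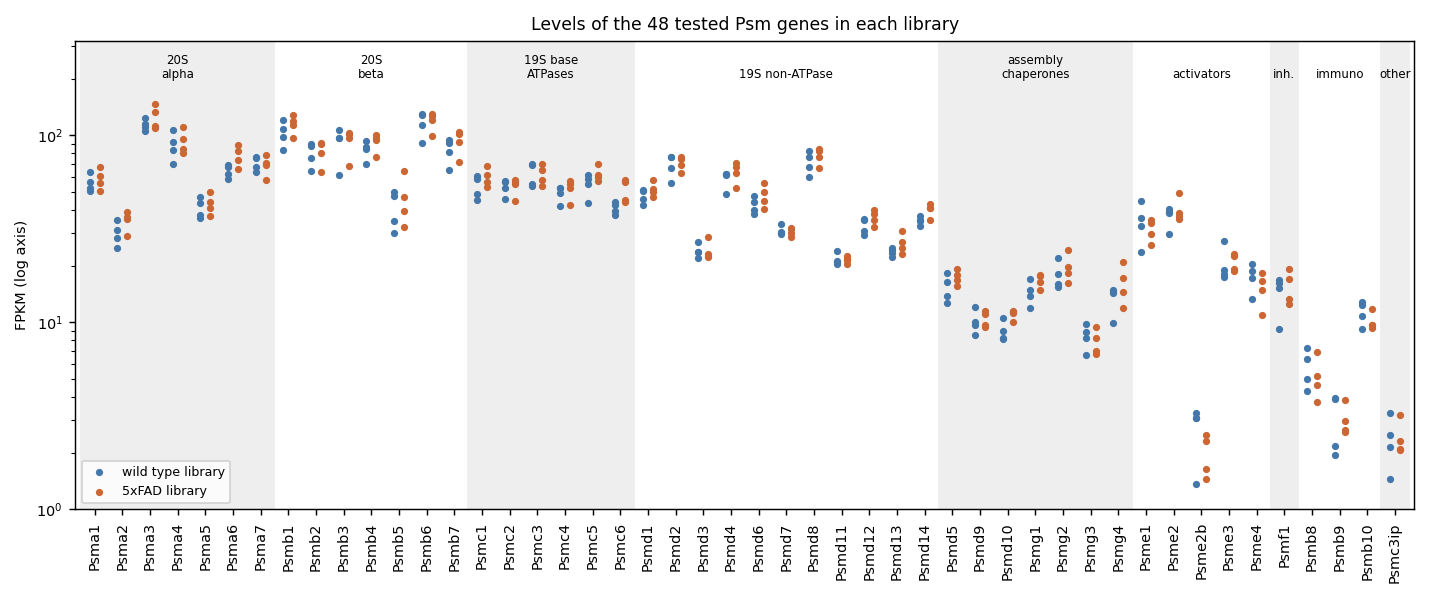
FPKM (log axis) of each tested gene in 4 wild type libraries (blue) and 4 5xFAD libraries (orange), by role, where inh. is the inhibitor Psmf1, immuno the immunoproteasome and other Psmc3ip. The beta subunits had a median of 87.8 FPKM, the assembly chaperones 14.8 FPKM and the immunoproteasome genes 5.43 FPKM, and the points of both groups overlap for every gene except Psmc6.

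Within the 20S core the subunits are built in at equal number, but their transcripts were not at equal level. Among the alpha subunits Psma3 was highest at 119.5 FPKM and Psma2 lowest at 32.5 FPKM, a ratio of 3.68. Psma3 is overlapped by 3110056K07Rik on the other strand and Psma2 by AW209491 on the same strand. The part of these overlaps in the levels was not tested. In the beta ring Psmb6 stood at 117 FPKM and Psmb5 at 43.1 FPKM, a ratio of 2.72. The 6 ATPases of the base were the most even class, from 45.8 FPKM for Psmc6 to 61.8 FPKM for Psmc3, a ratio of 1.35. Psma3 had 105, 111, 124 and 114 FPKM in wild type and 147, 134, 109.6 and 112 FPKM in 5xFAD, and Psma2 25.1, 28.4, 35.1 and 31.1 FPKM and 39.1, 36.6, 28.8 and 35.8 FPKM, and both were lowest in WT-11 and highest in 5xFAD-1. Psmc3 had 53.8, 69.9, 54.6 and 69.6 FPKM and 57.3, 65.3, 53.7 and 70.3 FPKM, alike in range in both groups. Among the other 19S subunits the range ran from 21.7 FPKM for Psmd11, a lid subunit, to 74.5 FPKM for Psmd8, also of the lid. Psmd11 kept to 20.4 to 24.1 FPKM in all libraries, while Psmd8 had 59.8 to 81.9 FPKM in wild type and 66.9 to 84.5 FPKM in 5xFAD. Psma8, the alpha subunit of germ cells, had 0.326, 0.627, 0.743 and 0.557 FPKM in wild type and 1.26, 0.786, 1.31 and 0.536 FPKM in 5xFAD. It stayed below the mean of 1 FPKM required for the test, and the groups overlapped. Psmb11 is listed at 0 in 6 libraries, at 0.0174 FPKM in WT-11 and at 0.0132 FPKM in 5xFAD-3, under the level of 1 fragment on 1000 nt. Processed pseudogenes named after Psmb5, Psmb6 and Psmb7 held 0 to 0.637 FPKM, little beside their parent genes.

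To learn whether the gland of 5xFAD mice expresses the proteasome at another level, the groups were compared with limma on log2(FPKM + 0.1) over 13094 protein-coding genes with a mean of at least 1 FPKM. Of the 50 members 48 passed this filter, and fold changes here are on that scale, 5xFAD over wild type. None of the 48 differed at an adjusted p under 0.05 (limma, Benjamini-Hochberg over all genes), where 0.0382% of all genes did. At an unadjusted p under 0.05, 2 members lay higher (Psmc6 and Psmd10) and 0 lower, against 4.6% and 3.35% of all genes. The exact permutation test of untransformed FPKM gave 1 member, Psmc6, at an unadjusted p of 0.0286, the smallest that 4 against 4 allows, and 0 after adjustment. All 4 5xFAD libraries lay above all wild type libraries in 1 member (background 2.11%) and below them in 0 (background 2.23%).

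The intervals were narrow enough to bound the differences. For 47 of 48 members the 95% interval from limma stayed within a log2 change of 1 in either direction, and for 31 of 48 within 0.5. The exception was Psme2b, a near copy of the activator gene Psme2. A difference of 2-fold or more thus lay outside the interval of every tested member but that one. The within-group SD on the log2 scale had a median of 0.18 for 31 subunits of the 20S and 19S particles. It was 0.22 for the 3625 protein-coding genes with a mean of at least 20 FPKM and 0.26 for all genes tested.

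**Figure D2:**
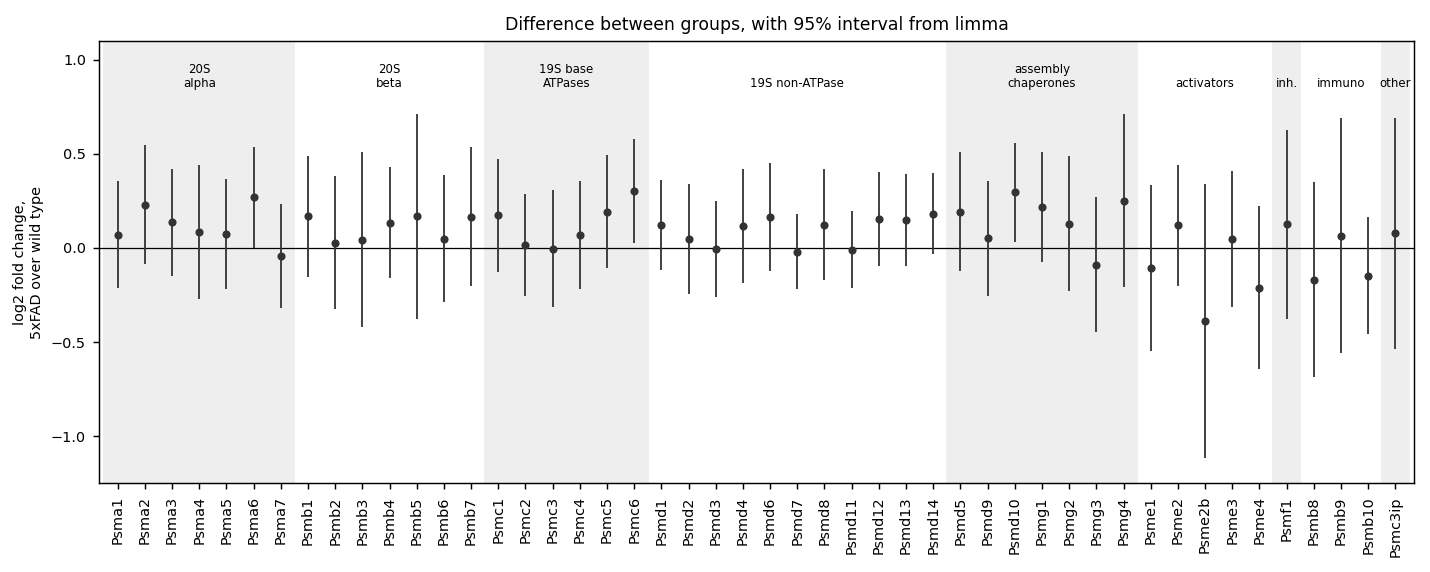
Log2 fold change of each tested gene, 5xFAD over wild type, with its 95% interval from limma (n = 4 libraries in each group), by role as in the plot of levels. Of the 48 points 37 lie above 0, and the intervals of Psmc6 and Psmd10 are the only ones that leave out 0.

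Small positive values prevailed among the standard members. Of the 44 tested, 35 had a log2 fold change above 0 (79.5%, against 48.7% of all genes), and their median was 0.12, where all genes had −0.007. By class the median was 0.09 for the alpha subunits, 0.13 for the beta subunits, 0.12 for the ATPases, 0.12 for the other 19S subunits and 0.19 for the assembly chaperones. All 7 beta subunits, 6 of 7 alpha subunits and 5 of 6 ATPases lay above 0. The activators had a median of −0.11, with 2 of 5 above 0. The members are read from the same 8 libraries and vary together, so these counts are no test. The median rested in large part on WT-11, without which it was 0.04 with 25 of 44 above 0. It was 0.19 without 5xFAD-3 and 0.08 without 5xFAD-21, and 0.15 without WT-22. Quantile normalization and array weights each gave 0.05, with 28 and 27 of 44 above 0. Other settings raised it, to 0.15 with equal protein-coding totals (39 of 44 above 0) and 0.18 with unread bases as a term (40 of 44). By the study's read statistics, WT-11 alone in wild type had a low share of unread bases, and 5xFAD-21 alone in 5xFAD a high one. This share thus ran largely alongside genotype, and its part in the median was not tested. WT-11 was also the library highest in markers of bone marrow neutrophils (440 FPKM summed over 6 genes, against 19.9 to 247 FPKM in the others) and of osteoblasts (60.3 FPKM over 5 genes, against 1.17 to 36.6 FPKM), and the part of these cells in the result was not tested.

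Psmc6, an ATPase of the 19S base on chromosome 14, was the member whose groups did not overlap. It had 42.5, 37.7, 44.1 and 39.2 FPKM in wild type and 56.5, 57.3, 44.9 and 44.2 FPKM in 5xFAD. The highest wild type library and the lowest 5xFAD library were nearly equal, and the distance between the groups came from 5xFAD-1 and 5xFAD-2. The means were 40.9 ± 2.97 and 50.7 ± 7.16 FPKM (SD, n = 4), a log2 fold change of 0.30, with a standard error of 0.12 (adjusted p = 0.607 from limma).

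Psmd10 encodes gankyrin, an assembly chaperone that also binds the retinoblastoma protein. Its levels were 8.24, 8.97, 10.6 and 8.13 FPKM in the wild type libraries and 11.3, 11.4, 10.05 and 11.2 FPKM in the 5xFAD libraries. WT-22, the library with Xist, lay above 5xFAD-3, and the other libraries kept apart by group. The gene lies on the X chromosome, and the part of this in the value of WT-22 was not tested. The log2 fold change was 0.29, with a standard error of 0.12 (adjusted p = 0.601 from limma), and 0.38 without WT-22 (adjusted p = 0.149), the smallest adjusted p of any member in any of 22 other settings.

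Psma6, an alpha subunit, came next by p, at a log2 fold change of 0.27 (limma, adjusted p = 0.629). It had 62.1, 58.0, 67.9 and 69.0 FPKM in wild type and 88.7, 82.0, 66.2 and 73.8 FPKM in 5xFAD, so that 5xFAD-3 lay among the wild type libraries. Psmd14, the deubiquitinase of the lid that cuts ubiquitin chains off the substrate, followed at 0.18 (adjusted p = 0.646), with 32.9 to 37.1 FPKM in wild type and 35.2 to 42.7 FPKM in 5xFAD. The ATPases Psmc5 and Psmc1 stood at 0.19 and 0.17, and Psmd6, Psmd12 and Psmd13, all of the cap, at 0.17, 0.15 and 0.15. Others lay near 0, with Psmd7, the partner of Psmd14, at −0.02, Psmd11 at −0.01, Psmd3 at −0.01 and the ATPase Psmc3 at −0.003. The ubiquitin receptors of the cap, Psmd2 and Psmd4, the former a scaffold, had 0.05 and 0.12.

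Assembly chaperones of the 20S core include the pairs Psmg1 with Psmg2 and Psmg3 with Psmg4. Their log2 fold changes were 0.22, 0.13, −0.09 and 0.25, and the groups overlapped for each. Psmd5 and Psmd9, which help to form the ATPase ring, stood at 0.19 and 0.05. Psmg2, the highest of the class, had 15.5 to 22.05 FPKM in wild type and 16.3 to 24.3 FPKM in 5xFAD, and Psmg3, the lowest, 6.67 to 9.76 FPKM and 6.76 to 9.42 FPKM. Psmg4 varied most within the class, from 9.88 FPKM in WT-23 to 20.9985 FPKM in 5xFAD-1.

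Libraries differed more than groups. Among 31 subunits of the 20S and 19S particles, WT-11 held the lowest value of the 8 libraries for 20, and lay below the gene's mean for 30. The library 5xFAD-3 lay below the gene's mean for all 31. The highest value was in 5xFAD-1 for 11 subunits, in 5xFAD-21 for 10 and in 5xFAD-2 for 6. The median log2 deviation from each gene's mean was −0.21, −0.07, 0.10 and 0.03 in wild type and 0.14, 0.12, −0.15 and 0.11 in 5xFAD. Thus 1 5xFAD library stood with the lower wild type libraries and WT-22 with the higher 5xFAD libraries. Over all genes tested the same median stayed between −0.03 and 0.03, but most of those genes lay lower in level than the subunits. Protein-coding FPKM summed to 346866, 359737, 365492 and 362687 in wild type. In 5xFAD the sums were 348885, 391275, 320286 and 346803, so 5xFAD-3 had the lowest total and 5xFAD-2 the highest. The part of these totals in the deviations was not tested.

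In the alpha, beta and ATPase classes alike, WT-11 was lowest and WT-21 and 5xFAD-3 came next. The order of the higher libraries differed between these classes. WT-23 stood at −0.03 for the alpha and 0.15 for the beta subunits, and 5xFAD-21 was highest for the ATPases (0.12). Among the 20S and 19S classes the beta subunits had the widest range, from −0.36 in WT-11 to 0.19 in 5xFAD-1, and the other 19S subunits a narrower one, from −0.17 in WT-11 to 0.17 in 5xFAD-2. Pinealocyte markers, as a mean log2 deviation over 7 genes, stood at −0.32, −0.46, 0.18 and −0.35 in wild type and at 0.48, 0.56, −0.02 and −0.06 in 5xFAD. This mean was high in 3 of the libraries in which the subunits were high (WT-22, 5xFAD-1 and 5xFAD-2) but not in 5xFAD-21. It leaned on Aanat, which ranged most, from 0.943 FPKM in 5xFAD-21 to 34.8 FPKM in 5xFAD-2. In 5xFAD-21, Gngt1 (21.5 FPKM) was the highest of the 8 libraries and Tph1 (737 FPKM) among the lower. In 5xFAD-2, Lhx4 (58.2 FPKM) was among the lower, so the markers did not move together. Their part in the result was not tested. Fewer cells of a type and less RNA per cell cannot be told apart in such pooled tissue.

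**Figure D3:**
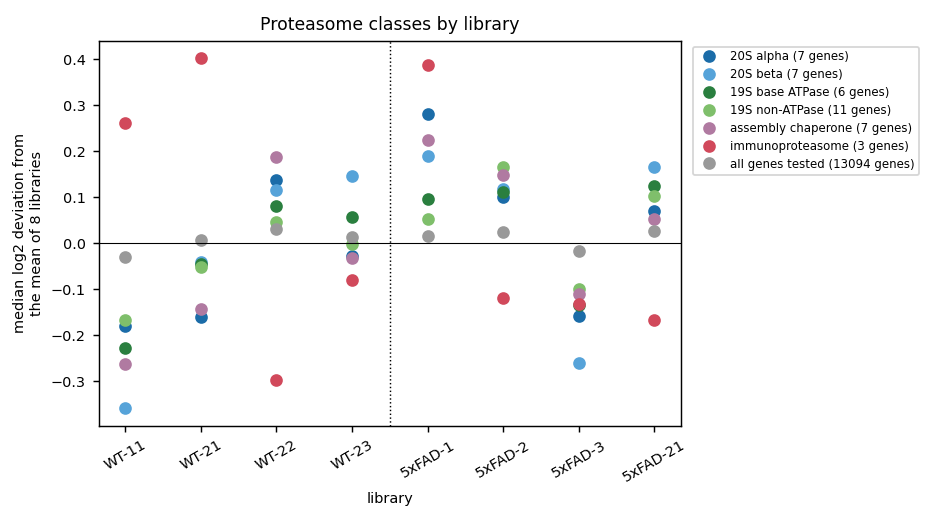
Median log2 deviation from the mean of the 8 libraries (vertical axis) in each library (horizontal axis), with a point for each class of proteasome genes and for all genes tested. The 20S and 19S classes lie lowest in WT-11 and below 0 in 5xFAD-3, while the immunoproteasome genes lie high in WT-11, WT-21 and 5xFAD-1.

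The standard active site subunits also spread between libraries, but Psmb5 did not follow the order of the class medians in wild type. It was highest there in WT-21 and lower in WT-22. Psmb5 had 30.04, 49.7, 34.6 and 47.2 FPKM in wild type and 39.3, 46.9, 32.5 and 64.8 FPKM in 5xFAD. The library 5xFAD-21 was highest and WT-11 lowest, and the groups overlapped. Its log2 fold change was 0.17 with the widest interval of the core (−0.38 to 0.71).

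Psmb6 had 90.9, 113, 128 and 129 FPKM in wild type and 120.4, 126, 98.8 and 130.35 FPKM in 5xFAD. Psmb7 had 64.8, 81.3, 93.9 and 90.4 FPKM and 101.3, 105, 72.3 and 92.5 FPKM. For both, WT-11 was lowest of all and 5xFAD-3 lowest of its group. The log2 fold changes were 0.05 for Psmb6 and 0.17 for Psmb7 (adjusted p = 0.934 and 0.791 from limma).

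Psmb8, on chromosome 17 of GRCm38 from 34197721 to 34201454, encodes the inducible subunit that replaces Psmb5. It had 6.37, 7.30, 4.29 and 5.01 FPKM in wild type and 6.96, 5.15, 4.61 and 3.77 FPKM in 5xFAD. WT-21 was highest and 5xFAD-21 lowest, and the groups overlapped. The log2 fold change was −0.17, with a standard error of 0.23 (adjusted p = 0.842 from limma), and −0.30 without WT-22 (adjusted p = 0.509).

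Psmb9 lies near it on chromosome 17 from 34181987 to 34187764, where its start overlaps that of Tap1 on the other strand. It had 3.96, 3.88, 2.17 and 1.94 FPKM in wild type and 3.86, 2.67, 2.96 and 2.58 FPKM in 5xFAD, with a log2 fold change of 0.07, with a standard error of 0.27 (adjusted p = 0.955). It turned to −0.06 without WT-22 (adjusted p = 0.925 from limma). The wild type libraries fell into a higher and a lower pair, and the 5xFAD libraries lay between them. These values stood for 23.2 to 75.6 fragments per 1000 nt of effective length, so that counting error takes a part in the spread, which was not separated from it. The library kit kept strand, but whether the counting used it is not given in the sources used here.

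Psmb10, on chromosome 8 from 105935735 to 105938444, had 12.3, 12.8, 9.20 and 10.8 FPKM in wild type and 11.8, 9.35, 9.70 and 9.71 FPKM in 5xFAD. In 5xFAD, 5xFAD-1 alone lay above WT-23, and below WT-11 and WT-21. The log2 fold change was −0.15, with a standard error of 0.14 (adjusted p = 0.786 from limma), and −0.24 without WT-22 (adjusted p = 0.345).

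Because both members of a catalytic pair are read from the same library, their ratio does not depend on how libraries were scaled. Psmb8 made up 12.7 ± 3.43% of the summed FPKM of Psmb8 and Psmb5 in wild type and 10.7 ± 4.06% in 5xFAD (SD, n = 4). It ranged from 5.49% in 5xFAD-21 to 17.5% in WT-11. Psmb9 made up 2.66 ± 1.30% and 2.51 ± 0.585% of its pair with Psmb6, and Psmb10 12.3 ± 3.13% and 9.99 ± 1.53% of its pair with Psmb7. The standard subunit thus prevailed in every pair and library, by transcript level, and the share of Psmb9 was the lowest.

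None of the 3 ratios differed between the groups in an exact two-sided permutation test over the 70 ways to choose 4 of 8 libraries, whose smallest possible p is 0.0286. The difference in log2 ratio, 5xFAD minus wild type, was −0.34 for Psmb8 over Psmb5 (exact p = 0.457, adjusted over the 3 ratios 0.686). It was 0.02 for Psmb9 over Psmb6 (exact p = 0.971, adjusted 0.971) and −0.32 for Psmb10 over Psmb7 (exact p = 0.286, adjusted 0.686), with all 4 5xFAD libraries below the wild type mean in the last. Single libraries set these values. Without 5xFAD-21 the first was −0.02, and without WT-11 the first and last were −0.15 and −0.16. Without WT-22 the last was −0.48 (exact p = 0.114). The second ran from −0.22 to 0.29 with 1 library left out, so its sign was not settled.

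**Figure D4:**
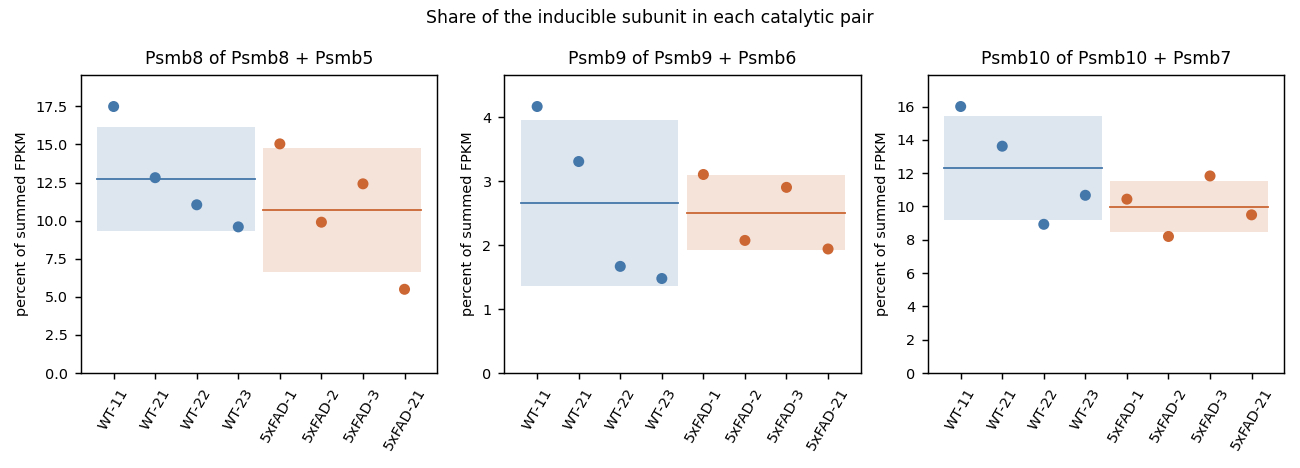
Share of the inducible subunit in the summed FPKM of each catalytic pair (vertical axis, percent, starting at 0) in each library, with wild type in blue and 5xFAD in orange. Lines give the group mean and bands 1 SD (n = 4). WT-11 is highest in all 3 pairs, and both groups overlap in each.

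The immunoproteasome genes followed another order of libraries than the standard subunits. Their median log2 deviation was 0.26, 0.40, −0.30 and −0.08 in wild type and 0.39, −0.12, −0.13 and −0.17 in 5xFAD. The 7 macrophage and microglia markers, all found and none at 0 in every library, summed to 157, 177, 82.0 and 127 FPKM in wild type and to 148, 103, 95.4 and 73.3 FPKM in 5xFAD. The 3 libraries highest in these markers (WT-21, WT-11 and 5xFAD-1) were the 3 highest in immunoproteasome genes. The 6 markers of bone marrow neutrophils summed to 440, 190.1, 19.9 and 120 FPKM and to 44.7, 202, 247 and 22.9 FPKM in the same order, so that 5xFAD-1 was low in them. Endothelial markers, 3 genes, summed to 69.8, 64.2, 25.7 and 44.8 FPKM in wild type and to 45.2, 42.5, 50.75 and 19.8 FPKM in 5xFAD. They were thus also highest in WT-11 and WT-21, but 5xFAD-3 came next. The part of any of these cell types in the levels of Psmb8, Psmb9 and Psmb10 was not tested.

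Activators cap the 20S core in place of the 19S particle. Psme1 and Psme2, which form the ring that interferon induces, were at their lowest or near it in WT-22. Psme1 had 32.6, 44.6, 23.7 and 36.0 FPKM in wild type and 29.8, 35.3, 25.9 and 33.9 FPKM in the 5xFAD libraries. Psme2 had 38.7, 38.2, 29.8 and 40.1 FPKM and 38.5, 49.1, 36.8 and 35.5 FPKM. The log2 fold changes were −0.11 and 0.12 (adjusted p = 0.889 and 0.817 from limma), and −0.27 and 0.02 without WT-22. At 32.7 and 38.3 FPKM over all libraries, both lay above the immunoproteasome genes in level.

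Psme3, which forms a nuclear activator ring, had 17.6, 18.98, 27.3 and 18.1 FPKM in wild type and 18.7, 23.1, 19.3 and 22.7 FPKM in 5xFAD. WT-22 alone stood above all 5xFAD libraries. Psme4, the large activator PA200 that acts on chromatin and in spermatids, had 20.4, 18.9, 13.4 and 17.3 FPKM and 10.9, 18.4, 14.9 and 16.6 FPKM, and 5xFAD-1 was lowest. Their log2 fold changes were 0.05 and −0.21 (adjusted p = 0.939 and 0.780 from limma), and 0.19 and −0.33 without WT-22. Psme4 thus went the other way from the subunits in 5xFAD-1, where the alpha subunits were highest.

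Psme2b had 3.28, 3.10, 1.37 and 3.08 FPKM in wild type and 2.33, 1.64, 2.50 and 1.46 FPKM in 5xFAD, a log2 fold change of −0.39 (adjusted p = 0.756 from limma). WT-22 was the lowest library, and the other 3 wild type libraries lay above all 5xFAD libraries. Without WT-22 the value was −0.68 (adjusted p = 0.204). Reads of Psme2b may be shared with Psme2, so its level is uncertain.

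Psmf1, the inhibitor PI31, had 9.17, 16.2, 16.8 and 15.4 FPKM in wild type and 16.9998, 13.4, 12.5 and 19.2 FPKM in 5xFAD, a log2 fold change of 0.13 (adjusted p = 0.882 from limma), and 0.21 without WT-22. WT-11 was lowest here too. Psmc3ip had 1.45, 3.29, 2.16 and 2.50 FPKM and 2.08, 2.33, 2.11 and 3.18 FPKM, a log2 fold change of 0.08 (adjusted p = 0.944), and was low in all libraries.

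Other genes of the pathway were taken as lists. Of 42 genes in 5 lists, 41 passed the filter, and 0 passed an adjusted p of 0.05 (limma). At an unadjusted p under 0.05, 4 lay higher and 1 lower, where 4.6% and 3.35% of all genes did. In 3 of the 41 all 5xFAD libraries lay above all wild type libraries, where 2.11% of all genes did so. The 10 proteasome partners had a median log2 fold change of 0.15, with 8 above 0. Pomp, the chaperone that matures the 20S core and is lost from it by digestion, had 53.0, 57.8, 56.6 and 53.7 FPKM in wild type and 72.9, 68.4, 62.9 and 69.5 FPKM in 5xFAD. All 5xFAD libraries lay above all wild type libraries, with means of 55.3 ± 2.33 and 68.4 ± 4.16 FPKM (SD, n = 4). The log2 fold change was 0.31, with a standard error of 0.09 (adjusted p = 0.545 from limma).

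Txnl1, a thioredoxin-like protein bound to the 19S cap, parted the groups as well, with 20.9 to 23.9 FPKM in wild type and 25.2 to 30.6 FPKM in 5xFAD. Its log2 fold change was 0.31 (adjusted p = 0.547). Zfand5, an activator of the 26S proteasome, lay at 0.33 (adjusted p = 0.633), with 54.7 FPKM in 5xFAD-2. Usp14 and Uchl5, the deubiquitinases that trim chains at the cap, stood at 0.19 and 0.23, and the ubiquitin receptor Adrm1 at 0.12.

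Ubiquitin genes and the enzymes that activate ubiquitin had a median of 0.06 over 6 genes. For Uba6, an E1 enzyme, the groups did not overlap, with 8.71 to 10.6 FPKM in wild type and 10.9 to 12.3 FPKM in 5xFAD (log2 fold change 0.26, adjusted p = 0.605). The main E1 enzyme Uba1 stood at −0.01 and the polyubiquitin gene Ubb at 0.06. Shuttles that bring substrates, together with the p97 segregase, had a median of −0.01 over 9 genes, with Vcp, which encodes p97, at −0.01 and Ubqln4 at 0.24.

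Among 7 tested genes of transcriptional control the median was −0.02. Nfe2l1 had 81.0, 85.0, 95.8 and 88.6 FPKM in the wild type libraries and 74.2, 84.1, 90.5 and 93.2 FPKM in the 5xFAD libraries, a log2 fold change of −0.04 (adjusted p = 0.932). Nfyb, a subunit of the factor that binds the CCAAT box, lay at 0.38 (adjusted p = 0.598), while its partners Nfya and Nfyc lay at −0.12 and −0.14. Nfe2l3 had 0.0317 to 0.183 FPKM and did not enter the test.

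The 9 genes of interferon response and antigen loading had a median of −0.13, with 2 above 0. Irf8, a factor of macrophages and B cells, had 4.68, 5.11, 1.97 and 3.03 FPKM in wild type and 2.47, 1.99, 2.15 and 1.55 FPKM in 5xFAD, a log2 fold change of −0.75 (adjusted p = 0.607). Irf1, which carries the interferon signal to Psmb8 and Psmb9, stood at −0.13, and Nlrc5, the transactivator of MHC class I genes, at −0.27. Tap1, which pumps peptides into the endoplasmic reticulum, had 4.87, 4.79, 1.89 and 4.24 FPKM and 3.44, 2.71, 3.54 and 2.87 FPKM, a log2 fold change of −0.24 (adjusted p = 0.824). WT-22 was the lowest library for Nlrc5, Tap1, Irf1 and the class I light chain B2m, and second lowest in macrophage markers. Without WT-22 the log2 fold changes were −1.02 for Irf8, −0.69 for Nlrc5, −0.55 for Tap1 and −0.26 for Irf1 (limma, adjusted p = 0.118, 0.228, 0.155 and 0.419), and B2m turned from 0.03 to −0.21 (adjusted p = 0.689).

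**Figure D5:**
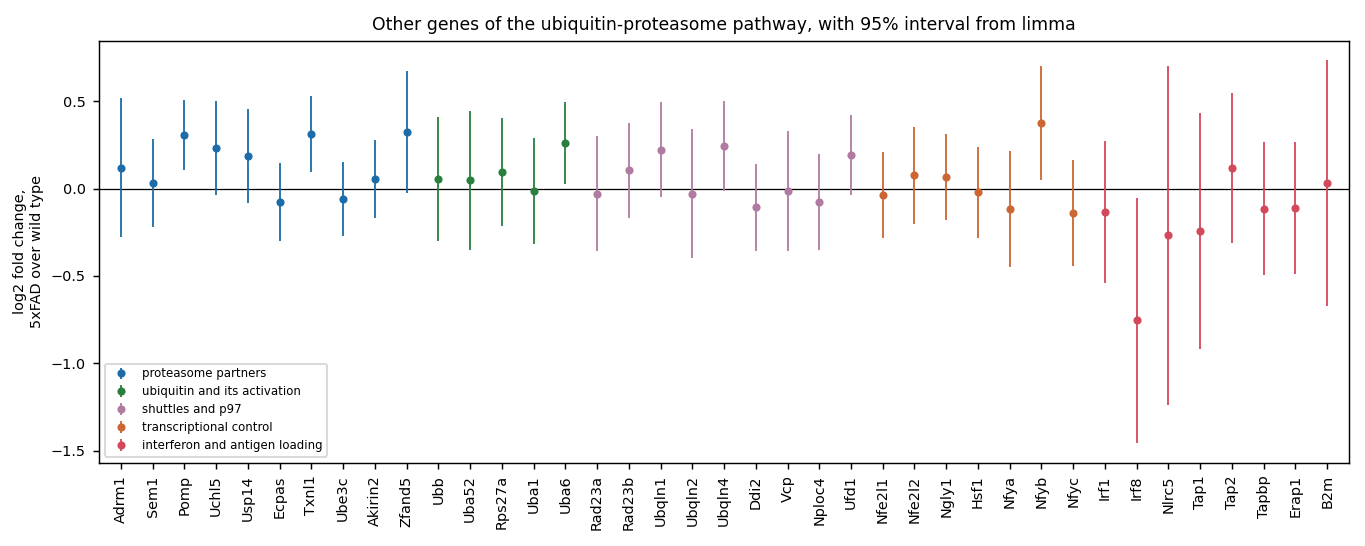
Log2 fold change, 5xFAD over wild type, with 95% interval from limma (n = 4 libraries in each group) for 39 of the 41 other genes tested in 5 lists. Pomp, Txnl1, Uba6 and Nfyb lie above 0 and Irf8 below 0 with intervals that leave out 0, and none passed adjustment over all genes.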

How the data were processed

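The deposited FPKM values were made by the authors with Cuffnorm, on GENCODE M17 gene models, from STAR alignments to mm10 of reads that Trimmomatic had trimmed. Tool versions and the library normalization in Cuffnorm are not given in the sources used here. The deposited mean over all libraries was not used. From the FPKM values, differences were computed in R 4.3.3 by limma, version 3.58.1 (functions lmFit, eBayes, the prior variance following mean expression). Input was log2(FPKM + 0.1) of protein-coding genes with a mean of at least 1 FPKM, with no covariate and Benjamini-Hochberg adjustment over all 13094. The fit was tested on simulated data. Ratios were compared by exact permutation, and tables were handled in Python 3.11.15. The value of 1 fragment was read from the lowest step in genes of 1 annotated transcript over 1500 nt, with 200 nt taken off the length. Of the low values, 85.7 to 95.1% lay within 0.1 of a whole number of fragments. Intervals are 95% intervals for the difference between group means, with a variance that limma takes from the spread between libraries and from other genes. Positions are from GENCODE M21 on the same build, which matched all 50 members, and promoters from RefSeq.

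The members, lists and tests were chosen with earlier results of these data known. Named genes followed a rule: any member, with values per library for the catalytic pairs, activators, inhibitor and Psmc3ip and for members of small unadjusted p or of highest or lowest level in a class, and for each list Nfe2l1, Pomp, Irf1, Nlrc5, Tap1 and those of smallest p. Psmd14, the members near 0 and some list genes were named for their role after their values were seen. Some genes of the lists are counted but not reported here. Alternatives were other pseudocounts, filters, scalings and weights, a term for the share of unread bases, a replicate block, and leaving out each library. Leaving out WT-22 and 5xFAD-21 together was added after the data were seen.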

Additional observations from a re-analysis of the deposited data

Results flagged for a closer look

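In 7 of 124 groups of 4 libraries, over 49 members (Psmb11 was left out), 3 ratios and 10 other named genes, 1 library stood far from the other 3, about as many as chance gives (1 in 20). WT-22 had 27.3 FPKM of Psme3, against 17.6 to 18.98 FPKM in its group, and 1.37 FPKM of Psme2b, against 3.08 to 3.28 FPKM. WT-11 had 48.6 FPKM of Psmd4, against 61.6 to 61.8 FPKM, and WT-23 had 9.88 FPKM of Psmg4, against 14.4 to 14.9 FPKM. In 5xFAD, 5xFAD-21 had 28.5 FPKM of Psmd3, against 22.4 to 23.1 FPKM, 5xFAD-3 had 10.05 FPKM of Psmd10, against 11.2 to 11.4 FPKM, and 5xFAD-1 had 11.8 FPKM of Psmb10, against 9.35 to 9.71 FPKM.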

How the results depend on the processing

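No member and no gene of the 5 lists passed an adjusted p of 0.05 (limma) in any of the 22 other settings, where the smallest adjusted p was 0.149 for members and 0.118 for list genes. The count of members higher in 5xFAD at an unadjusted p under 0.05, 2 as reported, was 1 with quantile normalization and 1 with exact permutation of FPKM, 4 with equal protein-coding totals, 4 with unread bases as a term and 0 with the replicate block. Leaving out 1 library gave 0 to 5 higher (5 without 5xFAD-3, 3 without WT-22, 1 without WT-11 or 5xFAD-21, 0 without WT-21, WT-23, 5xFAD-1 or 5xFAD-2) and 0 to 1 lower, the 1 being Psme2b without WT-22. Without WT-22 and 5xFAD-21 together 1 was lower, again Psme2b. The median of the standard members ran from 0.04 to 0.19. Leaving out 1 library moved the log2 ratios to −0.56 to −0.02 for Psmb8 over Psmb5, −0.22 to 0.29 for Psmb9 over Psmb6 and −0.48 to −0.16 for Psmb10 over Psmb7. Correlations of same-numbered libraries were −0.04, 0.21, −0.34 and 0.24. Libraries of unlike number were not compared, so these values do not settle whether the replicate numbers pair the samples. The replicate block changed no call of the ratios (exact p from 0.25 to 1). The causes of these shifts were not tested. The number of libraries, 4 a group, limits the precision of every difference.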
